A study of Gallus gallus with 6 samples.

Results

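SGK1, PRKG2, CAMK1D, PLCB4 and CREM are 5 genes of intracellular signalling, taken by their names from the authors' deposited table of differentially expressed genes and followed in the counts and RPKM values of each library. They are 5 of the 616 genes of that table and 5 of the 19152 genes in the count table. Because the table lists only genes that the authors called between these same libraries, a difference between the groups was a condition for being included, and the comparisons below describe its size and spread. The layers were Hy-line hens of 35 weeks with an egg in the uterus at 15 to 20 h post-ovulation (n = 3). The non-layers were Hy-line hens of 35 to 60 weeks without growing follicles (n = 3). Each hen gave 1 library, made from a portion of its uterine tissue. All hens came from 1 commercial farm and were kept singly in pens. Age and laying status cannot be told apart for every hen, since the labels give the non-layers as an age range, and no batch is labelled. The gene counts summed to between 14756666 and 20333103 per library. The expression of unsorted uterine tissue cannot tell fewer cells of a type apart from less RNA per cell, and the make-up of each portion is not labelled.

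The avian uterus, or shell gland, moves calcium, sodium, bicarbonate and water across its epithelium while the eggshell is laid down, and hormones and second messengers act on such transport. SGK1 is a kinase whose gene is induced by steroid hormones and which, in mammals, keeps the epithelial sodium channel at the cell surface. PRKG2 is the membrane-bound kinase that responds to cGMP, and CAMK1D is a kinase activated by calcium and calmodulin. PLCB4 is a phospholipase, among others, that receptors coupled to Gq proteins use to produce IP3 and release calcium. CREM is a transcription factor of the CREB family that binds cAMP response elements. Its gene also gives the short repressor ICER from an internal promoter, and counts per gene do not separate the forms.

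All coordinates are those of Galgal 5.0 in the authors' table. SGK1 (ENSGALG00000013971) spans bases 56365721 to 56371288 of chromosome 3 on the plus strand, with 2412 bases of exon. PRKG2 (ENSGALG00000010909) spans 45935473 to 45954816 of chromosome 4 on the plus strand, with 2334 bases of exon. CAMK1D (ENSGALG00000033051) covers 6522549 to 6602832 of chromosome 1 on the plus strand, of which 891 bases are exon, the shortest exon length of the 5 genes. PLCB4 (ENSGALG00000008907) covers 13955750 to 14046844 of chromosome 3 on the minus strand, with 5283 bases of exon. CREM (ENSGALG00000007082) lies between 13001322 and 13032921 of chromosome 2 on the minus strand. It has 2532 bases of exon and 4 annotated transcripts, whereas each of the other genes has 1. CAMK1D is the one among them for which the study designed a qPCR assay, and its primers, 5′ to 3′, are shown because they identify the target of that assay. The qPCR measurements were not used here.
CAMK1D forward: tggattgcaggtgatacagc
CAMK1D reverse: agtggatggagacatacaatctt

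All 5 genes had higher expression in layers, and for each of them every layer lay above every non-layer. Over all 13317 genes tested, 12.1% had every layer above every non-layer. By edgeR's quasi-likelihood test, 4 of the 5 were called up-regulated, namely PRKG2, SGK1, CREM and PLCB4, where a call needs at least a 2-fold change and an adjusted p below 0.05. Of all genes tested, 1.87% were called in either direction and 0.901% were called higher in layers, while edgeR called 17.8% of the 612 tested genes of the authors' table higher in layers. DESeq2's Wald test called all 5, and called 3.11% of the genes to which it gave an adjusted p higher in layers. Since the genes came from the authors' own DESeq2 calls, neither these counts nor the lack of overlap is independent evidence. Without layer 2, non-layer 1 or non-layer 2, edgeR called none of the 5. Each had an unadjusted p below 0.05 by edgeR in those fits, as did 2428, 1704 and 2061 of all genes. As the 5 were chosen for a difference between these libraries, their unadjusted p-values are no separate evidence. Over all genes, those fits called only 2, 0 and 1, against 249 with all libraries, so the lost calls are not particular to the 5.

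**Figure D1:**
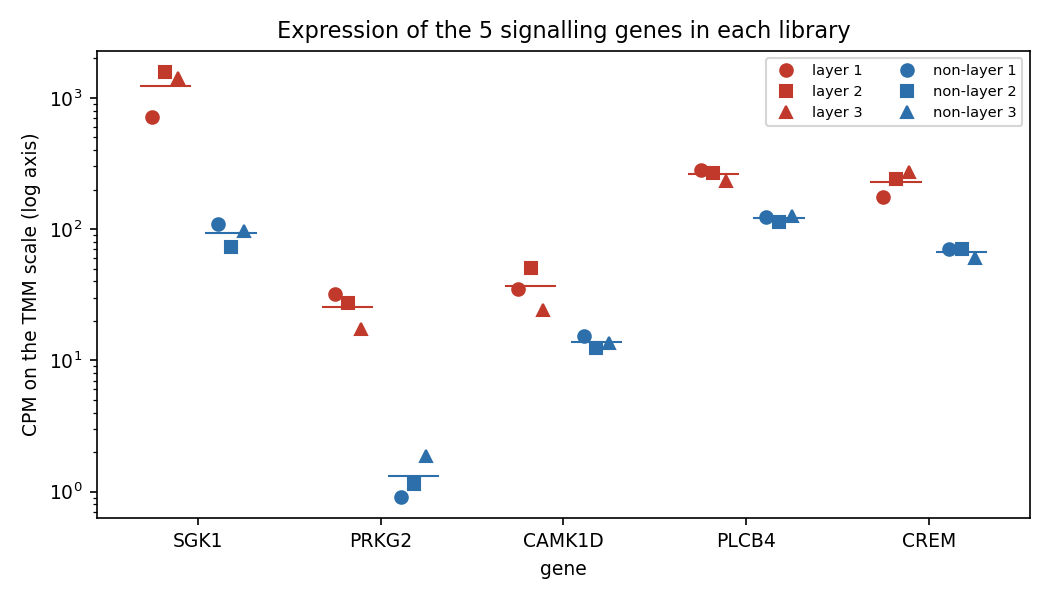
CPM on the TMM scale, which are read counts relative to library size, on a log axis, of the 5 genes in each library, with layers in red to the left of non-layers in blue and a bar at the mean of 3 libraries. Every layer lies above every non-layer for each gene, and the gap is widest for PRKG2, where the lowest layer is 9.16 times the highest non-layer.

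SGK1 had 718, 1575 and 1422 CPM in layers 1, 2 and 3, against 110, 73.0 and 96.3 CPM in non-layers 1, 2 and 3. CPM values are read counts relative to the size of the library, scaled by the TMM method. The groups did not overlap, and the lowest layer was 6.51 times the highest non-layer, although the layers themselves spread over 2.19-fold with layer 1 lowest. SGK1 averaged 1238 ± 457 CPM in layers, against 93.2 ± 18.8 CPM in non-layers (SD, n = 3 each). By edgeR, its log2 fold change was 3.73 ± 0.36 (SE), with an adjusted p of 0.016. Of all genes tested, 0.233% had a larger log2 fold change. Without layer 2, non-layer 1 or non-layer 2, its adjusted p by edgeR was 0.062, 0.13 and 0.089, above the threshold.

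PRKG2 was the least expressed of the 5 genes and the one with the largest fold change. It had 536, 390 and 306 counts in layers 1, 2 and 3, against 15, 23 and 36 counts in non-layers 1, 2 and 3, which is 31.8, 27.1 and 17.2 CPM against 0.915, 1.13 and 1.88 CPM. Layer 1, the lowest layer for SGK1, was thus the highest for PRKG2. The mean was 25.4 ± 7.44 CPM in layers, against 1.31 ± 0.504 CPM in non-layers (SD, n = 3 each). By edgeR, its log2 fold change was 4.26 ± 0.39 (SE), with an adjusted p of 0.016. In the non-layers, the values rest on few counts and spread over 2.05-fold. Without layer 2, non-layer 1 or non-layer 2, the adjusted p of PRKG2 by edgeR was 0.068, 0.13 and 0.089.

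CAMK1D had 34.7, 50.9 and 24.3 CPM in layers 1, 2 and 3, against 15.4, 12.4 and 13.7 CPM in non-layers 1, 2 and 3. Here the layers spread over 2.10-fold and the non-layers over 1.25-fold, and layer 3 was only 1.57 times the highest non-layer. The mean was 36.6 ± 13.4 CPM in layers, against 13.8 ± 1.54 CPM in non-layers (SD, n = 3 each). Its log2 fold change of 1.40 ± 0.29 (SE) had an adjusted p of 0.055 by edgeR and was not called. It was called without layer 3, with a log2 fold change of 1.64 and an adjusted p of 0.037 by edgeR, and it was called by DESeq2 on all libraries (log2 fold change 1.43, adjusted p = 0.00043).

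PLCB4 had the smallest fold change and the least spread between hens. Its values were 284, 268 and 234 CPM in layers 1, 2 and 3, against 124, 113 and 127 CPM in non-layers 1, 2 and 3. Within a group, the highest hen was 1.22 times the lowest among layers and 1.12 times among non-layers. PLCB4 averaged 262 ± 25.8 CPM in layers, against 121 ± 7.30 CPM in non-layers (SD, n = 3 each). By edgeR, its log2 fold change was 1.12 ± 0.15 (SE), with an adjusted p of 0.030. The biological coefficient of variation that edgeR assigned to PLCB4 was 0.178, lower than for all but 7.8% of the genes tested, whose median was 0.261, while CREM had 0.203, CAMK1D 0.277, SGK1 0.300 and PRKG2 0.317. PLCB4 lies close to the 2-fold threshold and its call depended on the scaling, since its log2 fold change was 0.78 when libraries were scaled by their size only and between 0.75 and 0.77 in the RPKM values. Those scalings moved the median of all genes below 0, and relative to that median PLCB4 was 1.11 higher with library size only and 0.96 to 1.11 higher in the RPKM values, against 1.11 with TMM, all on the log2 scale. With limma on log2(RPKM + 0.1), PLCB4 also missed the threshold of the adjusted p, at 0.054. Without layer 1, layer 2, non-layer 1 or non-layer 2, its adjusted p by edgeR was 0.065, 0.099, 0.17 and 0.13.

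CREM had 176, 241 and 271 CPM in layers 1, 2 and 3, against 70.5, 70.3 and 60.2 CPM in non-layers 1, 2 and 3. The non-layers lay within 1.17-fold of each other and the lowest layer was 2.50 times the highest non-layer. The mean was 229 ± 48.3 CPM in layers, against 67.0 ± 5.92 CPM in non-layers (SD, n = 3 each). By edgeR, its log2 fold change was 1.78 ± 0.20 (SE), with an adjusted p of 0.024. Without layer 2, non-layer 1 or non-layer 2, the adjusted p of CREM by edgeR was 0.091, 0.13 and 0.089. HBBA, a beta globin of red blood cells, had 82.2, 58.3 and 386 CPM in layers 1, 2 and 3. In the non-layers it had 53.3, 54.3 and 44.1 CPM. Layer 3 was thus highest for HBBA and CREM, but it was lowest for PRKG2, CAMK1D and PLCB4. The part of blood in the values of the 5 genes was not tested. HBBA was the 1 gene with a name out of a list of 5 red blood cell genes. Without layer 3, the log2 fold change of CREM was 1.64 and its adjusted p by edgeR 0.024.

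The hens did not keep 1 order across the 5 genes. Among the layers, layer 1 was highest for PRKG2 and PLCB4 and lowest for SGK1 and CREM, whereas layer 3 was lowest for PRKG2, CAMK1D and PLCB4 and highest for CREM. When tested directly against a 2-fold change with edgeR's glmTreat, only 8 of all genes tested passed. SGK1 and PRKG2 were among them, with adjusted p-values of 0.037 and 0.031 by glmTreat. CREM, CAMK1D and PLCB4 did not, with adjusted p-values of 0.118, 0.915 and 1.0 in the same test. With edgeR, each gene was higher in layers in all of the fits that left out 1 library. Because the groups did not overlap for any of the 5, the direction in those fits is no separate evidence. The log2 fold changes ranged from 3.51 to 4.01 for SGK1, 4.07 to 4.61 for PRKG2, 1.09 to 1.64 for CAMK1D, 1.05 to 1.20 for PLCB4 and 1.64 to 1.93 for CREM.

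**Figure D2:**
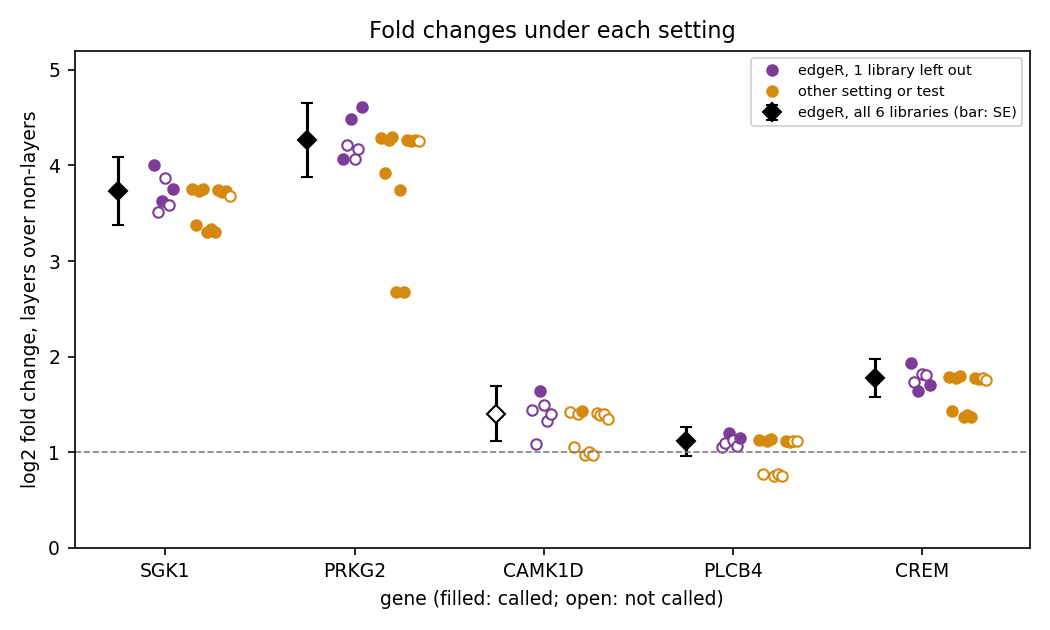
Log2 fold change of layers over non-layers for each gene, from edgeR on all 6 libraries with its standard error (black), from edgeR with 1 library left out (purple) and from other settings or tests (orange), with calls filled and the 2-fold line dashed. SGK1 and PRKG2 stay above 2-fold throughout, down to 3.30 and 2.68 with log2(RPKM + 1), whereas PLCB4 falls to 0.75 and CAMK1D to 0.97 there. The non-layer level of PRKG2, 0.637 RPKM, is below the 1 that is added, and with log2(RPKM + 0.1) PRKG2 is at 3.74.

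Levels of different genes were compared per length of transcript, in the deposited RPKM values, which divide the count by the length of the transcript and the size of the library. The mean RPKM in layers was 452 ± 152 for SGK1, 121 ± 22.3 for CREM, 44.2 ± 5.76 for PLCB4, 36.4 ± 12.6 for CAMK1D and 9.71 ± 3.14 for PRKG2 (SD, n = 3). In this order, PLCB4 and CAMK1D overlapped among the layers, and every other pair of neighbours was separate. The mean RPKM in non-layers was 45.5 ± 2.35 for CREM, 43.5 ± 9.43 for SGK1, 25.8 ± 2.52 for PLCB4, 17.5 ± 2.14 for CAMK1D and 0.637 ± 0.272 for PRKG2 (SD, n = 3). Here CREM and SGK1 overlapped, and the others were separate. SGK1 ranked above 98.3% to 99.0% of the genes with any reads in the layers, against 78.7% to 86.9% in the non-layers. PRKG2 ranked above 46.3% to 57.6% of them in the layers, against 13.1% to 18% in the non-layers.

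The per-length level of CREM depends on the length used for it. For SGK1, PRKG2, CAMK1D and PLCB4, counts and RPKM together imply the annotated exon length in every library when the RPKM denominator is taken as the library's sum of gene counts. CREM's values imply 1680, 1699 and 1663 bases in layers 1, 2 and 3, against 1655, 1649 and 1653 bases in non-layers 1, 2 and 3, all shorter than its 2532 bases of exon. Every layer was longer than every non-layer, by 1.71% on average, and the two-sided exact permutation test gave p = 0.10, the smallest p that 3 against 3 libraries can give. Among 3758 genes with at least 100 counts in every library whose implied length varied between libraries by more than 0.1%, 3.96% were longer in every layer, 11.8% were longer or shorter in every layer, and 20.5% had a larger difference between the group means than CREM. Over its annotated exon length, CREM would have 65.04, 81.58 and 93.7 RPKM in layers, against 30.9, 30.2 and 28.0 RPKM in non-layers. On that scale, SGK1 is above CREM in non-layer 2, which has 32.9 RPKM of SGK1, and PLCB4 is slightly above CREM in non-layer 3, with 28.2 RPKM.

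A ratio of 2 genes within a library does not depend on how the libraries are scaled, so the 10 pairs of these genes were also compared as log2 ratios of counts. For 6 of the 10 pairs the layers and the non-layers did not overlap, and these are the 6 that set SGK1 or PRKG2 against CAMK1D, PLCB4 or CREM. This split follows from the fold changes given above. Pairs of other genes were not compared, so the count is a description only. The largest difference was that of PRKG2 to PLCB4, with log2 ratios of -3.16, -3.31 and -3.76 in layers 1, 2 and 3, against -7.08, -6.64 and -6.08 in non-layers 1, 2 and 3. The difference between the group means was 3.19 on the log2 scale for this pair. Among the 6 pairs the differences ranged from 1.92 to 3.19, each with p = 0.10 by the two-sided exact permutation test, the smallest it allows, and p = 0.17 after adjustment over the 10 pairs. The SGK1 to PLCB4 ratio turned over, as PLCB4 had more counts than SGK1 in each non-layer and fewer in each layer.

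**Figure D3:**
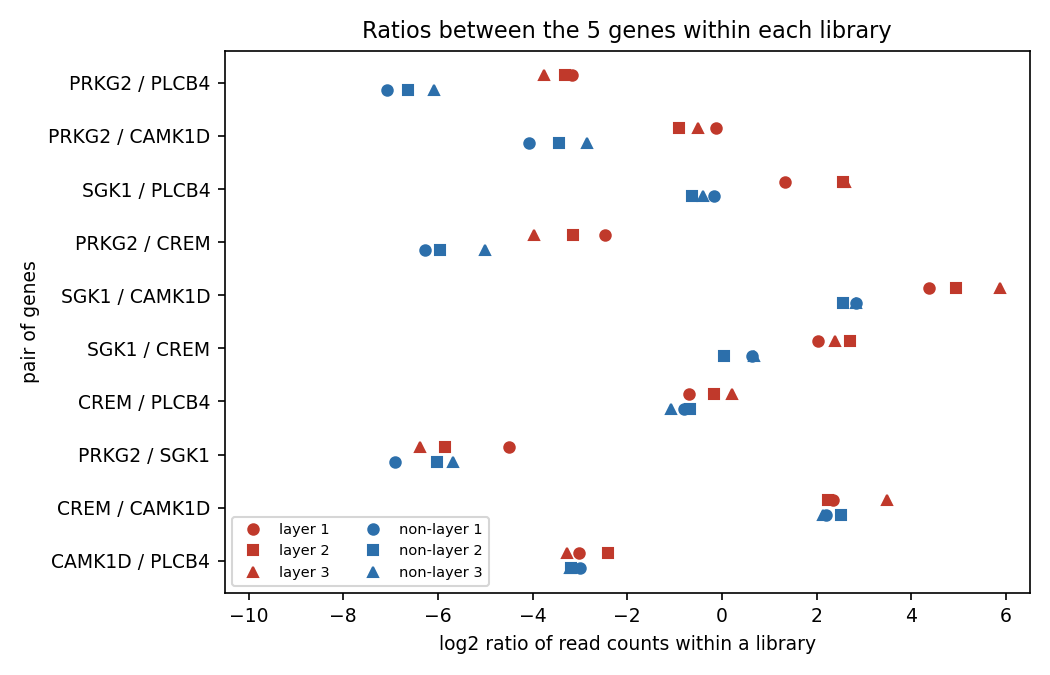
Log2 ratio of read counts between 2 genes within a library, for the 10 pairs, with layers in red above non-layers in blue. The 6 pairs that set SGK1 or PRKG2 against CAMK1D, PLCB4 or CREM are separated, and the other 4 pairs overlap.

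The other 4 pairs overlapped between the groups. The changes of SGK1 and PRKG2 were not separated in size, as the log2 ratio of PRKG2 to SGK1 was -4.50, -5.86 and -6.37 in layers 1, 2 and 3, against -6.91, -6.01 and -5.68 in non-layers 1, 2 and 3 (exact permutation p = 0.50, adjusted 0.56). The ratio of CREM to PLCB4 differed by 0.64 between the group means (exact permutation p = 0.20, adjusted 0.29), that of CREM to CAMK1D by 0.41 (p = 0.50, adjusted 0.56) and that of CAMK1D to PLCB4 by 0.23 (p = 0.70, adjusted 0.70).

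PRKG2 lies beside 3 other genes of the authors' table. It is followed within 5142 bases by PKD2, a calcium-permeable channel, within 19739 bases by SPP1, osteopontin, and within 31229 bases by MEPE, the eggshell matrix protein ovocleidin-116. These 3 genes are on the minus strand, opposite to PRKG2, and the strand setting of the counting is not stated. PKD2 had 176, 265 and 157 CPM in layers 1, 2 and 3, against 70.9, 66.8 and 100 CPM in non-layers (log2 fold change 1.33, edgeR adjusted p = 0.051). SPP1 had 2124, 672 and 160 CPM in layers 1, 2 and 3, against 0.366, 0.246 and 0.782 CPM in non-layers. MEPE had 46645, 46485 and 52838 CPM in the layers, against 30.0, 37.8 and 12.4 CPM in the non-layers. PRKG2 and SPP1 shared the order of the layers, whereas MEPE was highest in layer 3, where PRKG2 was lowest. Whether reads of the neighbours entered the counts of PRKG2 was not tested. The nearest gene of the authors' table was 111916 bases away for CAMK1D, 621710 for SGK1, 1201977 for PLCB4 and 3491005 for CREM.

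**Figure D4:**
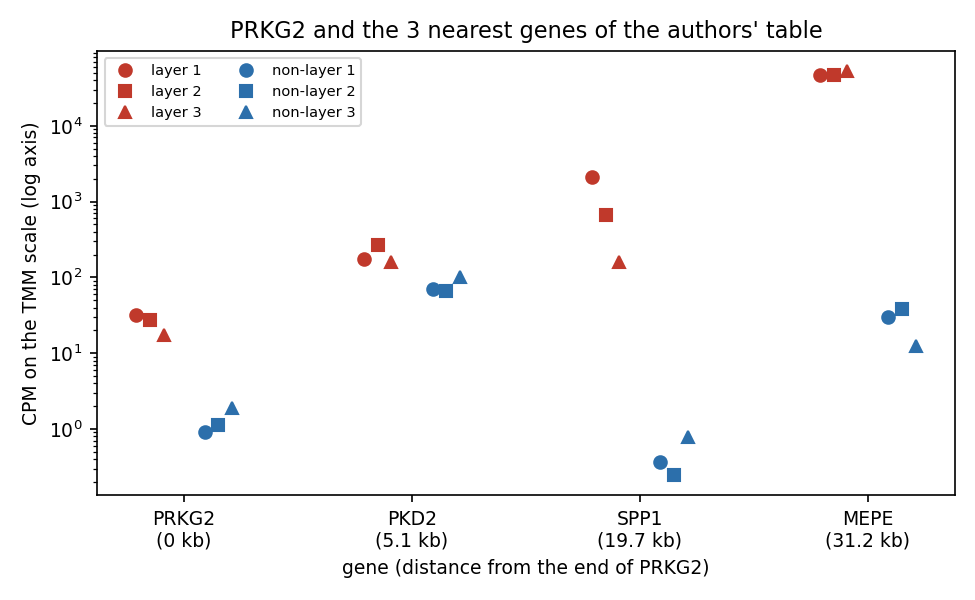
CPM on the TMM scale, on a log axis, of PRKG2 and the 3 nearest genes of the authors' table in each library, ordered by their distance from the end of PRKG2, with layers in red to the left of non-layers in blue. All 4 genes are separated between the groups, PKD2 by the least.

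Other genes of the same pathways were taken from 5 lists with 219 entries. Only 20 of these have a name in the files, the 5 genes above and 15 others, because names are at hand for the genes called by the authors. The lists therefore cannot show how many of their members did not change. Of the 15 other genes, edgeR called 6 higher and 1 lower in layers, and 11 had a log2 fold change above 0 and 4 below 0. Of the called genes, described below, ADORA2A was called in 0 of the 6 edgeR fits that left out 1 library. SGK3, AVPR1A, GNRHR and PDE4B were called in 1 such fit each, and OSTN and PGR in 2 each. Over all genes tested, edgeR called 0.901% higher and 0.969% lower in layers, and over the genes of the authors' table, from which the named genes come, 17.8% higher and 19.8% lower. The median log2 fold change of the named genes was 1.996 for steroid receptors and SGK, 1.68 for phospholipase C and IP3 and 1.78 for cAMP and the CREB family, beside 0.01 over all genes tested. These lists include SGK1, PLCB4 and CREM, respectively, and the median of 1.78 is CREM's own value. Being named required a called change, so nothing is read from the distance of these medians and counts from those of all genes. The cGMP list had a median of 0.46 with none of its 4 named genes near it, as 2 lay above 2 and 2 below -1 on the log2 scale.

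In the list of steroid receptors and SGK, edgeR called 2 of the 4 named genes higher in layers, SGK1 itself and SGK3, and 1 lower. SGK3, a kinase related to SGK1, rose, with 266, 302 and 131 CPM in layers 1, 2 and 3, against 59.6, 50.6 and 70.2 CPM in non-layers (log2 fold change 1.95, edgeR adjusted p = 0.036). SCNN1G, the gamma subunit of the epithelial sodium channel, had 262, 200 and 84.9 CPM in layers 1, 2 and 3, against 39.3, 35.0 and 58.7 CPM in non-layers, and was not called (log2 fold change 2.04, edgeR adjusted p = 0.055). SGK3 and SCNN1G were lowest in layer 3, where SGK1 was near its highest. PGR, the progesterone receptor, fell, with 373, 357 and 358 CPM in layers 1, 2 and 3, against 818, 722 and 922 CPM in non-layers (log2 fold change -1.18, edgeR adjusted p = 0.033).

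In the cGMP list, edgeR called 2 of 4 named genes higher, PRKG2 and OSTN. OSTN, osteocrin, a ligand of the natriuretic peptide clearance receptor, had 14.7, 9.87 and 12.2 CPM in layers 1, 2 and 3, against 2.07, 3.35 and 1.88 CPM in non-layers (log2 fold change 2.33, edgeR adjusted p = 0.033). NPR3, that clearance receptor, had 8.0, 8.41 and 6.07 CPM in layers, against 19.3, 14.4 and 25.6 CPM in non-layers, and was not called (log2 fold change -1.40, edgeR adjusted p = 0.054). CNGA4, a subunit of a channel gated by cyclic nucleotides, had 13, 18 and 36 counts in layers, against 121, 162 and 77 counts in non-layers (log2 fold change -2.25, edgeR adjusted p = 0.055). PRKG2 and OSTN were thus called while NPR3 and CNGA4, with lower values in layers, missed the threshold.

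In the list of calcium and calmodulin genes, CAMK1D was the 1 named gene out of 28. Among phospholipase C and IP3 genes, edgeR called 3 of 4 named genes higher, PLCB4 itself, AVPR1A and GNRHR. The other was PRKCB, a protein kinase C, with a log2 fold change of -1.37 (edgeR adjusted p = 0.10). The vasopressin-type receptor AVPR1A, which acts through Gq proteins and phospholipase C, had 54.8, 62.9 and 30.0 CPM in layers 1, 2 and 3, against 8.11, 15.1 and 8.03 CPM in non-layers (log2 fold change 2.24, edgeR adjusted p = 0.036). GNRHR, another receptor of this kind, had 232, 107 and 21 counts in layers 1, 2 and 3, against 0, 0 and 1 counts in non-layers (adjusted p = 0.034 by edgeR). Among the layers, PLCB4 and both receptors were lowest in layer 3.

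Among cAMP and CREB family genes, all 7 named genes, CREM included, had a log2 fold change above 0. Of these, edgeR called 3, CREM, PDE4B and ADORA2A. CNGA4, listed above under cGMP with a log2 fold change of -2.25, is placed by the paper in cAMP-mediated signalling. That all 7 lay above 0 thus depends on how the lists were drawn. PDE4B, which degrades cAMP, had 67.6, 79.4 and 154 CPM in layers 1, 2 and 3, against 22.7, 29.2 and 19.1 CPM in non-layers (log2 fold change 2.08, edgeR adjusted p = 0.036), so that PDE4B and CREM had the same order of hens within the layers. ADORA2A, an adenosine receptor that raises cAMP, had 23.2, 58.3 and 28.9 CPM in layers, against 7.99, 10.2 and 6.05 CPM in non-layers (log2 fold change 2.19, edgeR adjusted p = 0.045). The other phosphodiesterases were not called, with log2 fold changes of 1.27 for PDE3B (adjusted p = 0.096 by edgeR) and 2.15 for PDE10A (adjusted p = 0.15 by edgeR), whose groups overlapped. The beta-adrenergic receptor ADRB1 and the coactivator PPARGC1A had log2 fold changes of 1.42 and 1.22 and did not pass (edgeR adjusted p = 0.097 and 0.055).

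**Figure D5:**
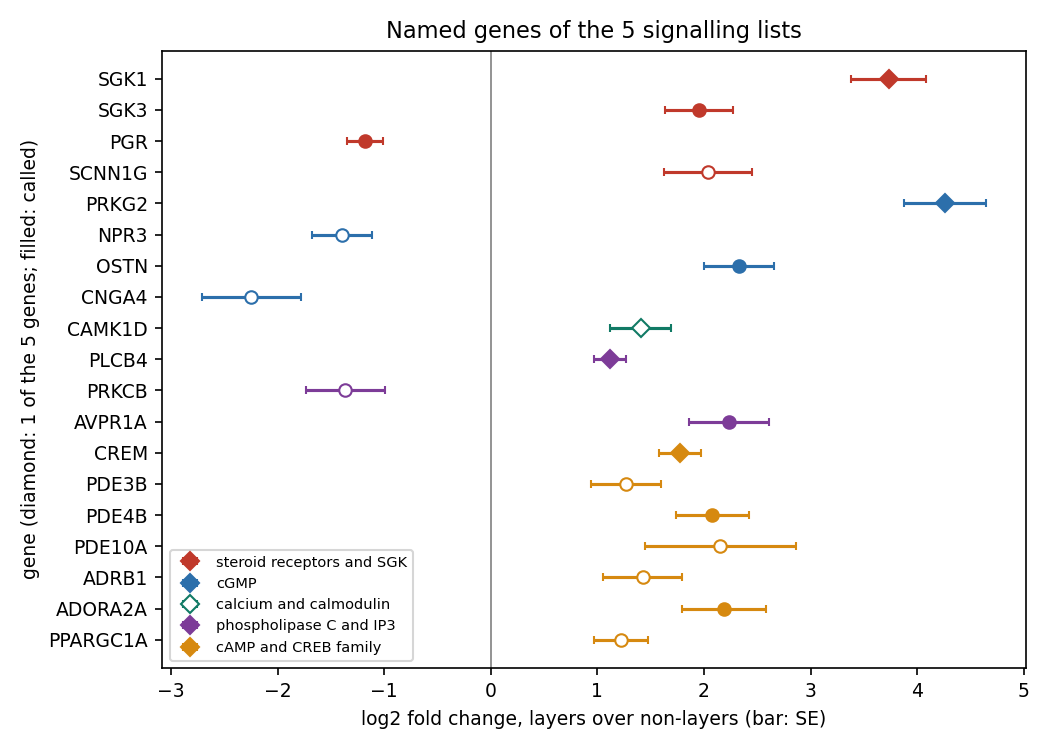
Log2 fold change of layers over non-layers with its standard error from edgeR for the named genes of the 5 signalling lists, coloured by list, with diamonds for the 5 genes of interest and filled symbols for calls. GNRHR is left out because its non-layer counts are near 0. Of the 19 genes drawn, PGR, NPR3, CNGA4 and PRKCB lie below 0, and only PGR of these was called.

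Genes with a similar profile were sought among all genes tested, by the root mean square difference of log2(CPM + 0.5), centred on each gene's own mean over the 6 libraries. These likenesses are descriptions that share the difference between the groups. For SGK1, 2 of the 3 nearest genes have a name, LYZ, lysozyme, at 0.51 and FGF1, a fibroblast growth factor, at 0.53, and PRKG2 was the seventh nearest at 0.63. For PRKG2 the nearest were TSKU, a small leucine-rich proteoglycan, at 0.22, TC2N at 0.40 and GADL1 at 0.41. For CAMK1D they were PELI2 at 0.12 and TMED3 at 0.14, besides 1 gene without a name. MAP1LC3A, of the autophagosome membrane, was nearest to PLCB4 at 0.055, and the next 2 had no name. PPP1R14D at 0.17, the potassium channel gene KCNJ2 at 0.18 and HPGDS, a prostaglandin D synthase, at 0.18 were nearest to CREM. CREM and PLCB4, in turn, differed by 0.43 from each other, and SGK1 and PLCB4 by 1.35. At 0.43, PLCB4 had rank 143 among the genes nearest to CREM, and CREM had rank 1294 among those nearest to PLCB4.

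Markers of cells were also looked up, and here too only genes that the authors called between these libraries have a name, so that a difference between the groups was a condition for being counted. Of 15 genes listed for the shell gland epithelium, 6 have a name and all 6 had log2 fold changes above 0, with 3 called higher in layers by edgeR. For comparison, edgeR called 17.8% of the genes of the authors' table and 0.901% of all genes tested higher. The summed level of the 6 genes was 74163 to 86322 CPM in layers, against 5053 to 9402 CPM in non-layers. In layers, most of this sum came from MEPE, whose levels are given above, and from RARRES1. In non-layers, nearly all of it came from RARRES1. RARRES1 had 19614, 20759 and 20297 CPM in layers 1, 2 and 3, against 6254, 4540 and 9193 CPM in non-layers, and was not called (log2 fold change 1.60, edgeR adjusted p = 0.050). OCX36 added 4872, 16998 and 1220 CPM in layers 1, 2 and 3, against 165, 250 and 46.7 CPM in non-layers. The difference in the sum was thus mostly that of MEPE, and the sum does not measure the amount of epithelium. Of 13 genes of dividing cells, 11 have a name and edgeR called 9 lower in layers. This stands beside the 19.8% of the genes of the authors' table and 0.969% of all genes tested that edgeR called lower. The summed level of the 11 genes was 65.1 to 79.5 CPM in layers, against 206 to 772 CPM in non-layers. TEKT1 was the 1 named gene of 12 for ciliated cells, with 31.1 to 69.4 CPM in layers, against 112 to 123 CPM in non-layers, without a call (edgeR adjusted p = 0.070). None of the 8 general epithelial, 9 smooth muscle and 9 immune genes listed has a name in the files. The part of the cell composition in the differences of the 5 signalling genes was not tested.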

How the data were processed

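Stranded poly-A libraries of the uterus of 3 layers and 3 non-layers, 1 per hen, were sequenced as single-end reads. Reads were trimmed with Prinseq and mapped to Galgal 5.0 with Array Studio. The authors deposited expected counts per gene, not normalized, of which 91.62% were whole numbers (within 1e-06), as were all 30 values of the 5 genes (within 0.001). The counter, its strand setting and the annotation release are not given in the sources used here. The authors also deposited RPKM values, whose denominator equals each library's sum of gene counts, without a composition factor. Their table of called genes supplied names, coordinates, exon lengths and other annotation. Its fold changes, p-values, q-values and group means were not used. Names could be given only to genes of that table, as the RefSeq table at hand matched 0 Ensembl identifiers.

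Counts, which summed to between 14756666 and 20333103 per library, were rounded and fitted with edgeR 4.0.16 in R 4.3.3 (TMM, filterByExpr, quasi-likelihood F-test, no covariates) over 13317 genes, with Benjamini-Hochberg adjustment over all of them. SE is the size of the log2 fold change over the root of F. Alternatives were DESeq2 1.42.0, limma 3.58.1 on log2(RPKM + 1) or log2(RPKM + 0.1), filtered at 1 RPKM in 3 libraries or unfiltered, other scalings and count filters, glmTreat, a replicate block and leaving out each library. The fits were tested on simulated data. Permutation tests used scipy 1.17.1.

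The 5 genes, the lists and the tests were chosen with earlier results of these data known. Named were the 5 genes, the 3 nearest profiles of each (genes without a name only counted), every gene of the 5 pathway lists that has a name, and the cell lists as counts. PKD2, SPP1, MEPE, RARRES1, OCX36, HBBA and TEKT1 were singled out after their values were seen.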

Additional observations from a re-analysis of the deposited data

How the results depend on the processing

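All 5 genes were higher in layers under each of the 11 other settings and in each of the 6 fits that left out 1 library. As their groups did not overlap in CPM or in RPKM, neither the other settings nor leaving out 1 library could easily change this direction. The shared direction is therefore no separate evidence. With edgeR and the replicate number as a block, none of the 5 was called, and the DEGs numbered 21. All 5, chosen for a difference between these libraries, had an unadjusted p below 0.05, as did 2224 of all genes. The log2 fold changes with the block were 3.68 for SGK1, 4.26 for PRKG2, 1.76 for CREM and 1.11 for PLCB4, with adjusted p-values from 0.061 to 0.093, and CAMK1D had an adjusted p of 0.134. Over all genes, hens with the same number did not deviate together (correlations -0.18, 0.11 and -0.08). Hens with different numbers had correlations from -0.15 to 0.20. These values cannot show whether hens with the same number shared a collection day or a batch, which is not labelled. With glmTreat, 2 of the 5 genes and 8 genes in all passed, without CREM (1.78) and PLCB4 (1.12). PLCB4 was not called with library size only (0.78), nor with limma on log2(RPKM + 1), filtered or not (0.75 each), or on log2(RPKM + 0.1) (0.77). In the last of these, its adjusted p by limma was also above the threshold, at 0.054. These settings have no composition factor, and their medians over all genes lay between -0.34 and -0.21 on the log2 scale, against 0.01 with TMM. CAMK1D was called by DESeq2 (1.43) and in edgeR's fit without layer 3 (1.64).

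The DEGs numbered 249 with edgeR, 120 of them higher in layers. They numbered 781 with library size only, of which 103 were higher, 928 with DESeq2, of which 441 were higher, 626 and 664 with limma and a pseudocount of 1 or 0.1, of which 87 and 77 were higher, and 434 with limma without a filter, of which 56 were higher. With 1 library left out, the DEGs ranged from 0 to 274, the number of the 5 genes called from 0 to 5, and the pairs of genes without overlap from 6 to 8. Leaving out a library cannot make separate groups overlap, so the number of pairs could not fall below 6. The DEGs numbered 2 without layer 2, 0 without non-layer 1 and 1 without non-layer 2, where edgeR gave 2428, 1704 and 2061 genes an unadjusted p below 0.05, and 41 without layer 1. The cause was not tested. Over these fits the log2 fold change ranged from 3.51 to 4.01 for SGK1, 4.07 to 4.61 for PRKG2, 1.09 to 1.64 for CAMK1D, 1.05 to 1.20 for PLCB4 and 1.64 to 1.93 for CREM. The counts of PRKG2 in non-layers, at most 36, are the lowest behind any value of the 5 genes.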
